A study of Cerrena unicolor with 12 samples.

Results

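In the white rot fungus *Cerrena unicolor* 87613, 80 genes had transcripts that stood high at cultivation day 10 (Cd-10) and low at cultivation day 6 (Cd-6) in glucose medium and again in fructose medium. A gene was taken when its lowest Cd-10 library held at least 2 times the value of its highest Cd-6 library within glucose, and likewise within fructose, on the deposited values plus 1. Its mean over the 12 libraries had to be at least 50, its ID had to begin with A, and it could not appear in the pathway tables of the study's supplement. These 80 genes are 0.709% of the 11281 genes in the table. Of the 9125 genes with a suitable ID, 7736 reached the mean, and 207 of those (2.68%) passed the factor in glucose, 239 (3.09%) in fructose and 80 (1.03%) in both. The 80 genes are thus 38.6% of the genes past the factor in glucose and 33.5% of those past it in fructose. The same rule turned around, for genes high at Cd-6 in both sugars, took 51 genes. The rule used the Cd-6 and Cd-10 values of every library, so all differences between the days are given here as descriptions, with no test.

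In all, 4 groups of 3 replicate cultures each were compared, all of them wild-type hyphae of strain 87613. The paper's methods describe growth in shaken liquid potato dextrose medium and do not mention fructose cultures. The groups were glucose as the carbon source at 6 days, glucose at 10 days, fructose at 6 days and fructose at 10 days, and the labels name no other agent. Sugar and age were the only factors that the labels give, and no batch is named. RNA came from whole mycelium, so more hyphae with a transcript and more transcript per hypha cannot be told apart.

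Wood-rotting fungi of this kind secrete laccase, a copper oxidase, together with enzymes that break down lignin and plant polysaccharides. In a closed liquid culture the sugar is used up as the mycelium ages, and filamentous fungi then pass from rapid growth to a stationary phase in which they draw on other carbon sources and on their own stores. Glucose and fructose enter the same route of sugar breakdown, glucose as glucose 6-phosphate and fructose as fructose 6-phosphate. Glucose in particular is known to hold down genes for the use of other carbon sources in many fungi, which is called carbon catabolite repression. Cd-6 was chosen by the study as the period of high extracellular laccase activity and Cd-10 as that of low activity. None of the 80 IDs is paired with a product in the deposited table, in the study's supplement or in the gene table of another *C. unicolor* strain that was at hand, in which 0 IDs of the table were found. The genes are therefore given by ID, without a name or role, and the hyphal identity of the samples could not be checked against marker genes.

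The libraries held 10279983 to 12126094 assigned reads and showed 10912 to 11102 genes above 0. Median-ratio factors of the deposited values over all 12 libraries were 1.04 to 1.05 in glucose and 0.944 to 0.961 in fructose. The authors thus appear to have scaled each sugar apart. Values below are the deposited values after a further division by these factors (rescaled values). They rest on read counts and are not corrected for gene length, so that they compare libraries for 1 gene and not genes with each other. Glucose Cd-6 replicate 2 stood apart for these genes. It was the highest of the 3 glucose Cd-6 cultures in 44 of the 80 genes (55.0%), against 37.6% of the 10396 genes that passed the filter on low values. It was at least 2 times both other cultures in 12 of the 80 (15.0%), against 2.49% of the genes tested. Without this culture the rule would take 130 genes. All 80 are among them, since leaving out a culture cannot narrow the gap between the days. In glucose at Cd-10, replicate 3 was the highest in 59 genes (73.8%, against 43.0% of all genes tested) and replicate 2 the lowest in 47 (58.8%, against 31.0%).

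Together the 80 genes took a small share of each library at Cd-6 and a larger one at Cd-10. In glucose their summed values made up 0.383%, 0.463% and 0.372% of the library in Cd-6 replicates 1 to 3, and 2.13%, 1.93% and 2.08% in Cd-10 replicates 1 to 3. In fructose the shares were 0.274%, 0.303% and 0.300% at Cd-6, and 1.67%, 1.77% and 2.20% at Cd-10. These shares do not depend on the scaling between libraries. At Cd-6 every glucose culture lay above every fructose culture, with means of 0.406% ± 0.0499 and 0.292% ± 0.0161 (SD, n = 3). Comparing shares amounts to scaling by each library's summed values alone. On that scaling the median log2 difference at Cd-6, fructose minus glucose, was -0.27 over all genes and -0.29 over the 80. A gap in this direction was thus not particular to the 80. At Cd-10 the sugars overlapped, at 2.05% ± 0.104 in glucose and 1.88% ± 0.283 in fructose (SD, n = 3). The 6 genes with the highest mean made up 0.447% to 0.768% of each library at Cd-10.

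**Figure D1:**
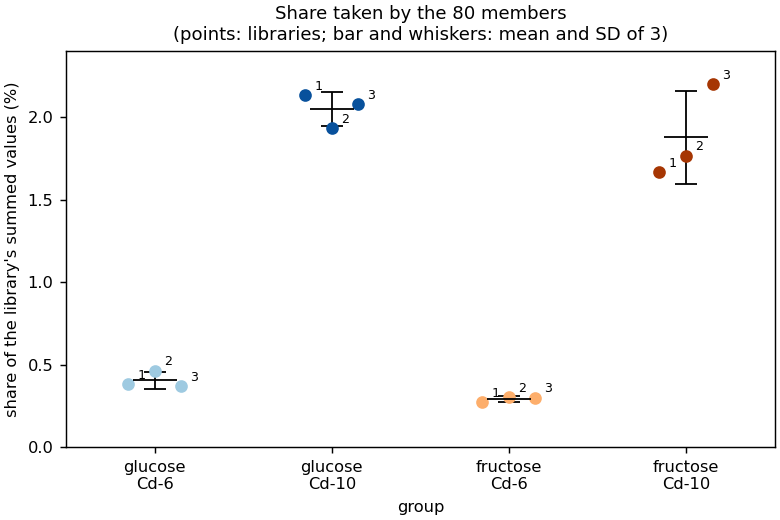
Share of each library's summed values taken by the 80 genes (y axis, percent) in the 4 groups (x axis), with points for libraries, numbers for replicates, and bar and whiskers for the mean and SD of 3. The Cd-6 cultures lie between 0.274% and 0.463% and the Cd-10 cultures between 1.67% and 2.20%.

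The size of the rise varied widely among the genes, over a like range in the 2 sugars. On the log2(rescaled value + 1) scale, the change from Cd-6 to Cd-10 ran from 1.20 to 8.08 in glucose (median 2.53) and from 1.46 to 6.53 in fructose (median 2.45), against medians of -0.01 and 0.01 over the 10396 genes tested. A log2 change of at least 2 was seen in 63 genes in glucose, in 61 in fructose and in 55 in both, and a change of at least 3 in 27, 29 and 17. Only 4 genes changed by at least 4 in both sugars, namely A09891, A07899, A06327 and A09153. In 20 of the 80 genes, every Cd-6 culture of both sugars stayed below a rescaled value of 100, and none of the 80 had a value of 0 in any Cd-6 culture. Within each sugar the rule had already set the days apart, so an overlap across the sugars needed a further difference between them. The next count was thus largely fixed in advance, and it has no counterpart here for other genes. When the sugars were pooled, all 6 Cd-10 cultures lay above all 6 Cd-6 cultures in 79 of the 80 genes. The exception was A09110, whose fructose Cd-10 replicate 3 stood at 2530.0 against 2562 in glucose Cd-6 replicate 1.

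**Figure D2:**
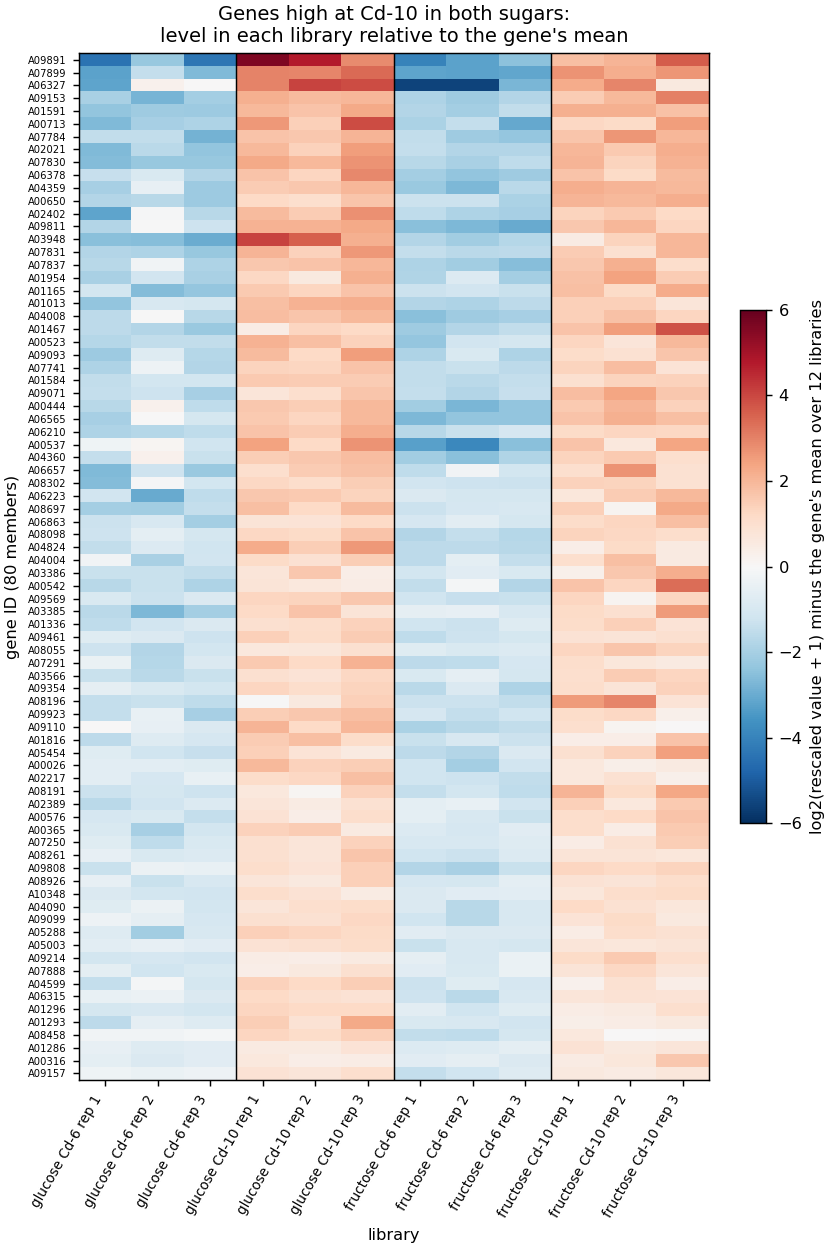
Level of each of the 80 genes (rows, ordered by the smaller of their 2 changes with age, largest at the top) in the 12 libraries (columns), as log2(rescaled value + 1) minus the gene's mean over the libraries. The Cd-6 columns are mostly blue and the Cd-10 columns mostly red, as the rule requires, and the strength of the colour falls from A09891 at the top to A09157 at the bottom.

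A09891 had the largest rise of the 80 in glucose. Its rescaled values at Cd-6 were 29.0, 129.7 and 31.1 in glucose and 39.3, 67.8 and 116 in fructose. At Cd-10 it stood at 31179, 17637 and 4549 in glucose, and at 2247, 2632 and 8074 in fructose. The sugars overlapped at Cd-6 and again at Cd-10, where the glucose cultures were spread over a log2 range of 2.78. The log2 change was 8.08 in glucose and 5.72 in fructose.

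A07899 changed to a like extent in both sugars, by 5.53 in glucose and 5.65 in fructose on the log2 scale. It had 16.0, 56.7 and 23.5 in glucose and 16.4, 15.6 and 17.2 in fructose at Cd-6. Its Cd-10 values were 1224, 1189 and 1617 in glucose and 1000.3, 693 and 961 in fructose. The 3 fructose cultures at Cd-6 were nearly the same, and the highest Cd-6 value of all belonged to glucose replicate 2. A01591 also rose in both sugars, with 26.0, 31.6 and 30.2 in glucose and 40.4, 33.4 and 49.6 in fructose at Cd-6. It reached 546, 466 and 684 in glucose and 615, 617 and 477 in fructose at Cd-10, so that the sugars overlapped, with log2 changes of 4.21 and 3.77.

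A09153 held 342.4, 189 and 322 in glucose and 369, 300.2 and 396 in fructose at Cd-6. It held 5784, 4940.3 and 5292 in glucose and 3836, 5020.0 and 10665 in fructose at Cd-10. Its log2 changes, 4.27 and 4.06, were close, and replicate 3 alone set the wide spread of the fructose Cd-10 cultures. A00713 had few reads at Cd-6, with rescaled values of 9.98, 16.2 and 17.6 in glucose and 17.5, 24.5 and 7.08 in fructose. Its Cd-10 values of 413, 182 and 1034 in glucose and 159, 149 and 382 in fructose were widely spread, and replicate 3 was the highest in each sugar.

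**Figure D3:**
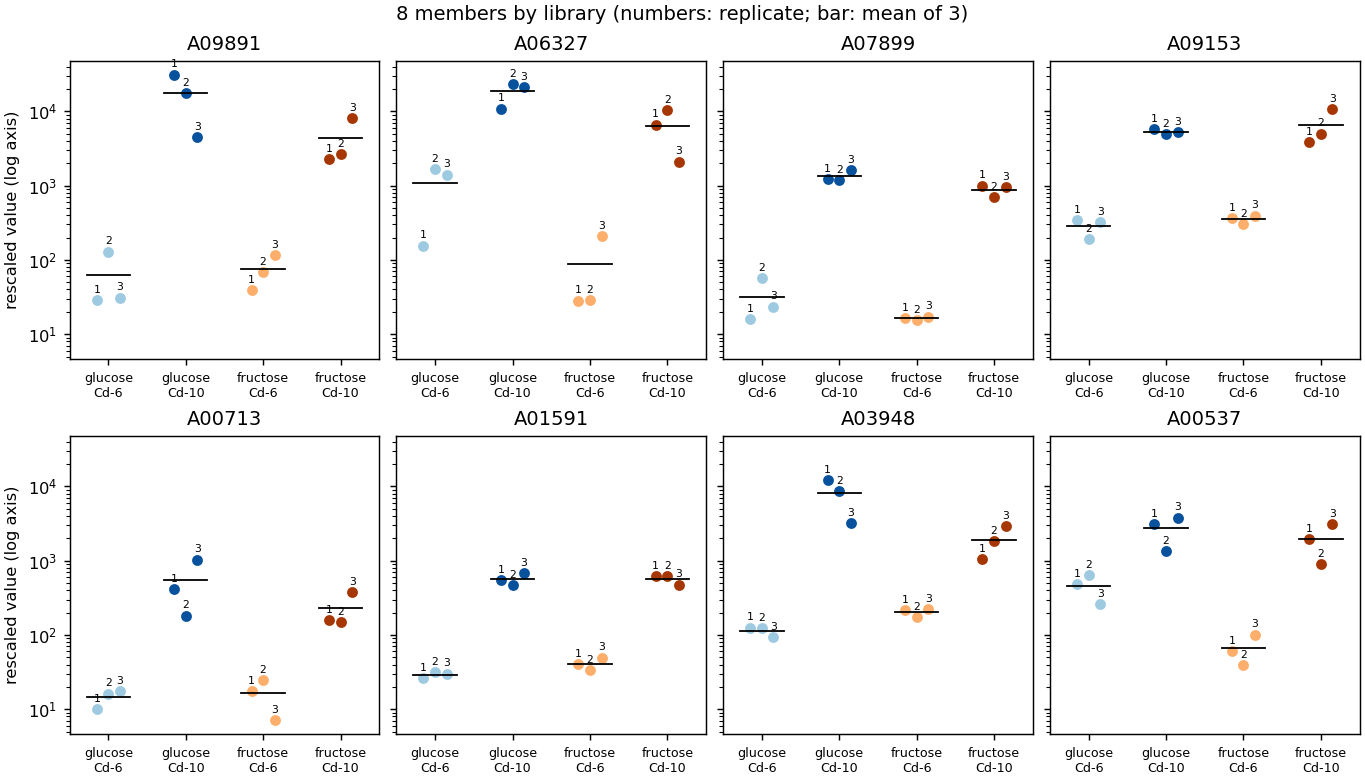
Rescaled values (y axis, log scale) of 8 genes in the 3 replicates of each group (x axis), with the replicate number at each point and the group mean as a bar. In every panel the Cd-10 cultures of a sugar lie above its Cd-6 cultures. At Cd-6 the sugars overlap in A06327, whose mean is lower in fructose, and lie apart in A00537, with fructose lower. At Cd-10 every fructose culture lies below every glucose culture in A03948, A06327 and A07899.

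The 6 genes with the highest mean rescaled value were A05454, A09099, A06327, A00542, A03566 and A09891. A05454 had 2816, 2036 and 1793 in glucose and 1547, 1369.8 and 2540.4 in fructose at Cd-6, and 12417, 8263 and 6704 in glucose and 8938, 12261 and 25318 in fructose at Cd-10. A00542 had 1037, 1335 and 929 in glucose and 1203, 3032 and 970.2 in fructose at Cd-6, and 5616, 5125 and 4572 in glucose and 10967, 8119 and 33730.5 in fructose at Cd-10. In both genes fructose Cd-10 replicate 3 stood well above every other culture. A09099 and A03566 varied less. A09099 rose from 3604 ± 864 to 11001 ± 1375 in glucose and from 2271 ± 529 to 9854 ± 2072 in fructose (SD, n = 3). A03566 rose from 1736 ± 201 to 9528 ± 1454 in glucose and from 2652 ± 518 to 11378 ± 1968 in fructose (SD, n = 3).

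The rise was larger in glucose in 42 genes and larger in fructose in 38. The 2 changes of a gene differed by less than 0.5 on the log2 scale in 37 genes and by at least 1 in 18, of which 10 rose more in fructose and 8 more in glucose. The difference itself ran from -2.82 to 2.26, fructose minus glucose, with a median of -0.02. A03948 and A09891 rose more in glucose by the widest margin. A03948 held 126, 125 and 93.2 in glucose and 214, 172 and 225 in fructose at Cd-6, against 12294, 8685 and 3223 in glucose and 1039, 1828 and 2893 in fructose at Cd-10. Its sugars did not overlap at either day, with fructose above glucose at Cd-6 and below it at Cd-10. The difference at Cd-6, 0.83 on the log2 scale (standard error 0.43), did not pass (adjusted p = 0.24 in limma).

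At the other end stood A00537 and A06327, which rose more in fructose. A00537 had 489, 640.5 and 258 in glucose and 61.2, 38.9 and 101 in fructose at Cd-6, and 3096, 1337 and 3806 in glucose and 1931, 903 and 3072 in fructose at Cd-10. Its sugars were apart at Cd-6 and overlapped at Cd-10, and the log2 changes were 2.53 in glucose and 4.79 in fructose. A06327 had 156, 1648 and 1410.5 in glucose and 28.4, 28.9 and 208 in fructose at Cd-6, where glucose replicate 1 fell below fructose replicate 3. At Cd-10 it had 10879, 23328 and 21228 in glucose and 6613, 10442 and 2104 in fructose, every glucose culture above every fructose culture. These changes entered the rule, so the difference between them was not tested.

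**Figure D4:**
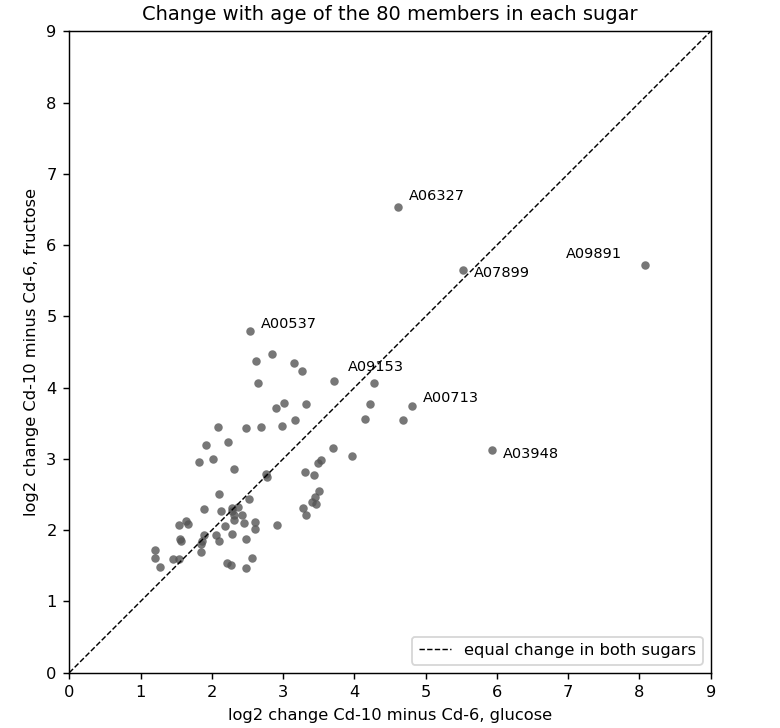
Change of each of the 80 genes from Cd-6 to Cd-10 in glucose (x axis) and in fructose (y axis), as a difference of mean log2(rescaled value + 1), with a dashed line where both are equal. The points lie on both sides of the line, 42 below and 38 above it, and A09891 and A03948 lie farthest below and A00537 and A06327 farthest above.

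The level in fructose against glucose within 1 day did not enter the rule and was tested with limma on all 12 libraries, at an adjusted p below 0.05 over 10396 genes. At Cd-6, 14 of the 80 genes (17.5%) were higher in glucose, against 5.02% of all genes tested, and 1 (1.25%) was higher in fructose, against 5.29%. The log2 differences of the 14 genes ran from -3.65 to -0.52, fructose minus glucose. The other 65 genes did not pass. Over all 80, the median log2 difference was -0.02, against 0.00 over the genes tested. In 10 of the 14, glucose Cd-6 replicate 2 was the highest glucose culture, and without that library the count was 4 and the median 0.08. The calls over all genes fell as well, from 522 higher in glucose to 273. The count was also 3 without fructose Cd-6 replicate 1 (168 over all genes), 5 without fructose Cd-6 replicate 2 (310), and 9 without any 1 of glucose Cd-6 replicate 3, fructose Cd-6 replicate 3 and fructose Cd-10 replicate 1 (364, 332 and 442). It was 4 when only the 6 Cd-6 libraries were fitted (293).

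The differences at Cd-6 were led by A06327, A00537 and, in the other direction, A03385. A00537 was 2.78 lower in fructose on the log2 scale (difference -2.78, standard error 0.51, adjusted p = 0.0055 from limma), and it passed under every alternative that was run (adjusted p 1.1e-06 to 0.030). A06327 had a difference of -3.65 (standard error 0.92, adjusted p = 0.027 from limma), with overlapping sugars. In limma its adjusted p was 0.10 without glucose Cd-6 replicate 2 and 0.086 without glucose Cd-6 replicate 3. It was 0.12 without fructose Cd-6 replicate 1, 0.090 without fructose Cd-6 replicate 2 and 0.081 with the 6 Cd-6 libraries alone. Over all alternatives it ran from 0.0020 to 0.12. A03385, with 38.9, 17.8 and 28.5 in glucose and 81.9, 85.6 and 61.7 in fructose, was the gene higher in fructose. Its difference of 1.45 (standard error 0.40, adjusted p = 0.039 from limma) did not pass without glucose Cd-6 replicate 2 (0.15) or 3 (0.078), without glucose Cd-10 replicate 1 (0.054), or without fructose Cd-6 replicate 1 (0.13), 2 (0.10) or 3 (0.063). Nor did it pass in edgeR (0.062), with library-size scaling (0.051) or with a replicate block (0.061), and the range over all alternatives was 0.013 to 0.15.

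At Cd-10 fewer of the 80 genes differed between the sugars. In limma, 5 (6.25%) were higher in glucose, against 1.80% of all genes tested, and 2 of the 80 were higher in fructose, against 1.54%. The 2 genes higher in fructose were A01467 and A09214. A01467 held 1020.3, 1832 and 1746 in glucose and 2468, 4231 and 10508 in fructose, and differed by 1.69 on the log2 scale (standard error 0.42, adjusted p = 0.046 from limma). A09214 held 726, 707 and 788 in glucose and 1174, 1609 and 1067 in fructose, and differed by 0.77 on the log2 scale (standard error 0.18, adjusted p = 0.041 from limma). In the other direction A03948 led with -1.99 (standard error 0.43, limma adjusted p = 0.033), followed by A04824 with -1.39 (standard error 0.28, limma adjusted p = 0.028). A04824 held 1604, 937 and 2048 in glucose and 456, 756 and 491 in fructose. None of these 4 genes overlapped between the sugars at Cd-10. Their adjusted p reached 0.11 to 0.14 at most when single libraries were left out. With the 6 Cd-10 libraries alone none of the 4 passed (0.058 to 0.094), with a replicate block only A04824 did (0.054 to 0.069 in the others), and A09214 did not pass on the values as the authors scaled them (0.060).

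The calls at Cd-10 changed when single cultures were left out. Of the 7 genes, 0 passed in limma without glucose Cd-10 replicate 1, 1 without glucose Cd-10 replicate 2 and 3 without glucose Cd-10 replicate 3, where 5 of the 80 passed in all. Without glucose Cd-10 replicate 1, 19 of the 80 and 1896 of 10367 genes had an unadjusted p below 0.05. The count among the 80 was 4, 2 and 1 without fructose Cd-10 replicates 1, 2 and 3, of which 4, 1 and 0 were among the 7, and 3 without fructose Cd-6 replicate 1. The calls over all genes fell too, from 160 higher in fructose and 187 higher in glucose to 10 and 5 without glucose Cd-10 replicate 1, to 18 and 18 without replicate 2, and to 24 and 18 without fructose Cd-10 replicate 3. With all 12 libraries, edgeR on the recovered reads also called 7 of the 80, the same genes, and DESeq2 called 14, these 7 among them. Over all genes, edgeR called 170 higher in fructose and 190 higher in glucose, and DESeq2 429 and 480. The larger count in DESeq2 was thus not particular to the 80.

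Counted by overlap alone, the 3 glucose cultures lay above the 3 fructose cultures in 17 of the 80 genes at Cd-6 (15.8% of all genes tested) and in 21 at Cd-10 (15.0%). Fructose lay above glucose in 12 genes at Cd-6 (16.4%) and in 5 at Cd-10 (13.8%). In shares of the 80, glucose was higher in 21.3% and 26.3%, and fructose in 15.0% and 6.25%. After scaling by library size alone, which shifted the median of all genes at Cd-6 by -0.27, glucose was higher in 26 of the 80 at Cd-6 (30.0% of all genes tested) and fructose in 3 (7.96%). At Cd-10 the counts were then 21 (12.9%) and 7 (16.2%). The sugars overlapped in 51 genes at Cd-6 and in 54 at Cd-10.

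**Figure D5:**
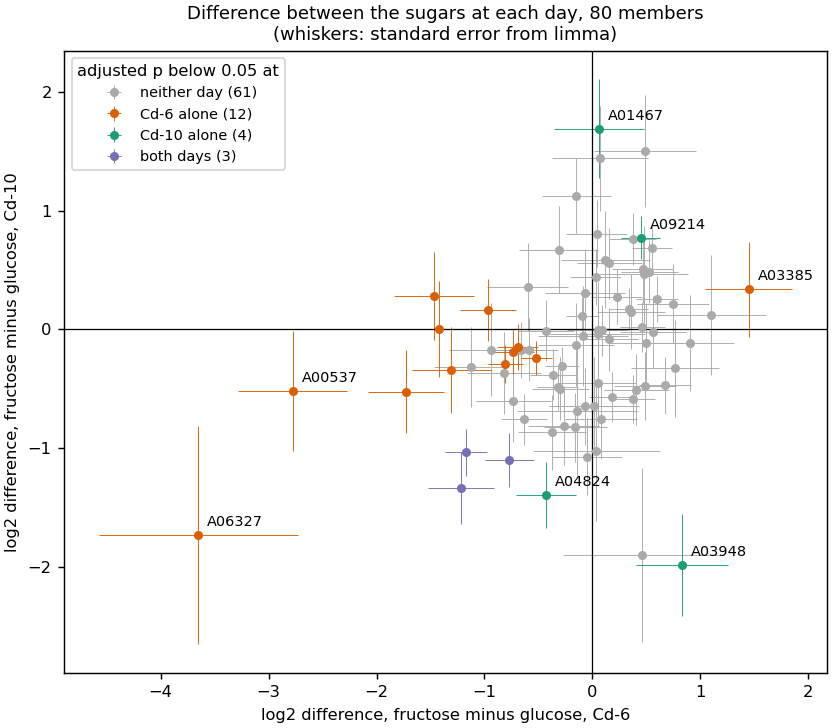
Log2 difference between fructose and glucose at Cd-6 (x axis) and at Cd-10 (y axis) for the 80 genes, with standard errors from limma as whiskers and colours for the days at which the adjusted p was below 0.05. Most points lie near the centre, 61 genes passed at neither day, 12 at Cd-6 alone, 4 at Cd-10 alone and 3 at both days, and the 3 lie low in fructose at both.

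Just 3 genes differed between the sugars at both days, all with higher values in glucose. They were A08458, A00026 and A09110, and they are named here after their values were seen. No figure over all genes stands beside this count of 3. All 3 are among the 7 genes called at Cd-10, of which 0 passed in limma without glucose Cd-10 replicate 1. The same was true without fructose Cd-10 replicate 3. The calls over all genes fell in both of these fits as well. A08458 held 197, 195 and 207 in glucose and 80.8, 78.9 and 107 in fructose at Cd-6, and 556, 492 and 610.2 in glucose and 356, 226 and 238 in fructose at Cd-10. It rose by nearly the same log2 change in the 2 sugars, 1.46 and 1.59, from levels that differed by -1.17 (standard error 0.20, adjusted p = 0.0036 from limma) at Cd-6. A00026 differed by -0.77 (standard error 0.23, adjusted p = 0.048 from limma) at Cd-6 and by -1.11 (standard error 0.23, adjusted p = 0.028 from limma) at Cd-10. A09110 differed by -1.22 (standard error 0.30, adjusted p = 0.026 from limma) at Cd-6 and by -1.34 (standard error 0.30, adjusted p = 0.039 from limma) at Cd-10. In the other 61 genes no difference between the sugars passed at either day, which does not show that their levels were equal.

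The replicates of these genes spread somewhat more than those of other genes. The median SD of log2(rescaled value + 1) over 3 cultures was 0.40 in glucose at Cd-6, 0.28 in glucose at Cd-10, 0.25 in fructose at Cd-6 and 0.35 in fructose at Cd-10. Over all genes tested it was 0.28, 0.23, 0.19 and 0.26. The widest Cd-10 ranges were those of A09891 in glucose, as given above, and of A00713.

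The genes of the study's pathway lists were kept out of the 80, but they could be held to the same thresholds. Of the 93 listed genes, 19 (20.4%) met them. The study had picked these lists as genes changed between Cd-6 and Cd-10, so that their share is not independent of the rule. Its lists also give each gene a direction, with all 10 glutathione genes higher at Cd-6 and all 9 citrate cycle genes higher at Cd-10. A gene given as higher at Cd-6 could hardly meet the thresholds, so the differences between lists below were largely set in advance. Under pyruvate metabolism, the exchange of pyruvate with acetyl-CoA, lactate and other small acids, 7 of 13 genes met the thresholds. Carbon metabolism had 11 of 29, glyoxylate and dicarboxylate metabolism, through which fungi build sugars from acetyl units, 4 of 10, and the citrate cycle, which oxidizes acetyl units, 3 of 9. Starch and sucrose metabolism had 2 of 14 and biosynthesis of secondary metabolites 12 of 50. No gene of the lists for glutathione metabolism, biosynthesis of amino acids, the yeast cell cycle or meiosis met them, and 3 of the 10 glutathione genes and 3 of the 12 amino acid genes met the thresholds turned around. Those were also met by 5 secondary metabolite genes, 3 of carbon metabolism, 2 of starch and sucrose metabolism and 1 of pyruvate metabolism, and by 9 of the 93 in all. The lists share genes. The median log2 change of the pyruvate list was 2.86 in glucose and 2.66 in fructose, near the medians of 2.53 and 2.45 of the 80 genes. That of the yeast cell cycle list was -1.20 in glucose and -0.09 in fructose.

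Some of the 80 genes carried neighbouring ID numbers, although no source says that the numbers follow position in the genome. There were 3 such pairs, A03385 with A03386, A04359 with A04360 and A07830 with A07831, named after their values were seen. The next listed A ID was itself one of the 80 for 3.75% of these genes, against 0.868% of all A IDs. A04359 held 156, 442 and 138 in glucose at Cd-6 and A04360 106, 340.5 and 113, replicate 2 standing highest in both. Both rose more in fructose, A04359 by 4.23 against 3.27 in glucose and A04360 by 3.44 against 2.48. A07830 and A07831 rose more in glucose, by 4.68 and 3.96, than in fructose, by 3.54 and 3.04. A03385 and A03386 were less alike, the former rising by 3.33 in glucose and 2.22 in fructose and the latter by 2.29 and 2.27.

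At the limit of the rule, the genes just inside were A09157, whose lowest Cd-10 value, on the deposited scale plus 1 that the rule used, was 2.00 times its highest Cd-6 value in glucose and 2.41 times in fructose, and A07888, at 2.01 and 2.16. After rescaling A09157 held 975, 867 and 933 at Cd-6 and 2143, 1937 and 2322 at Cd-10 in glucose, and 428, 513 and 668 at Cd-6 and 1750.0, 1611 and 1858 at Cd-10 in fructose. Just outside stood A08300, at 1.99 in glucose and 3.44 in fructose, and A00032, at 1.95 and 1.94. In A08300, glucose Cd-6 replicate 2 stood at a rescaled 705 against 197 and 448 in replicates 1 and 3, and it alone set the highest Cd-6 value of the gene in glucose.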

How the data were processed

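Total RNA of 12 cultures (4 groups of 3) was sequenced. According to the paper's methods, Hisat2 aligned the filtered reads to the strain's genome and featureCounts assigned them to genes, and the submitters' notes also name Cufflinks. The deposited values are a signal: the authors scaled each library's read counts by a factor of its own, with no length correction. That these factors were set apart for each sugar was inferred from the values. Dividing by the worth of 1 read gave whole numbers for 100% of entries in all 12 libraries (tolerance 0.01). That worth lay between 0.992 and 0.999 in 3 libraries, where a step so near 1 is harder to tell from rounding. Median-ratio factors over the 12 libraries rescaled the values, and log2(value + 1) was fitted with limma 3.58.1 in R 4.3.3, with a variance trend, for 10396 genes with at least 10 in at least 3 libraries. All 80 genes passed this filter, to which their own high Cd-10 values contributed. Adjusted p-values follow Benjamini and Hochberg over all genes of a contrast. The scale understates changes of weakly expressed genes.

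The genes and lists were chosen with earlier results of these data known. Genes named are the 6 with the highest mean, the 6 with the largest smaller change, the 2 largest differences between sugars in each direction per day, the 2 nearest to the limit on each side, the 2 with the widest Cd-10 range, runs of 3 or more consecutive ID numbers (none found), and the 2 most unlike rises in each direction. Alternatives were other scalings, pseudocounts and filters, a replicate block, 1 day at a time, leaving out each library, and edgeR 4.0.16 and DESeq2 1.42.0 on recovered reads. The scripts were tested on simulated counts. No sequence was at hand for these genes.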

Additional observations from a re-analysis of the deposited data

Results flagged for a closer look

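A03948 was singled out because its sugars lay apart in opposite directions at the 2 days. All 3 fructose cultures stood above all 3 glucose cultures at Cd-6 and below all 3 at Cd-10, so that its log2 change with age was lower in fructose by -2.82 (5.94 in glucose and 3.12 in fructose). The difference between the sugars passed at Cd-10 and not at Cd-6 (limma, adjusted p = 0.033 and 0.24). The difference between the changes was not tested, since both changes entered the rule that chose the gene.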

How the results depend on the processing

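The rule took 80 genes as deposited, 78 after median-ratio rescaling and 69 after scaling to the same sum, of which 62 were among the 80. With a factor of 1.5 it took 182 genes and with a factor of 4 it took 20. Leaving out 1 library gave 80 to 130 genes, the 130 without glucose Cd-6 replicate 2. All 80 were kept except in the absence of fructose Cd-10 replicate 3, where 79 were. This was largely fixed in advance, since leaving out a library cannot narrow the gap between the days that the rule measures. A gene could be lost only through its mean. For the sugars at Cd-6, the count higher in glucose was 3 to 15 with 1 library left out, 4 with the 6 Cd-6 libraries alone and 12 to 18 in the other alternatives. The count higher in fructose was 0 to 3 with 1 library left out, 0 under library-size scaling, 0 in the fit with a replicate block, 0 in edgeR and 2 in DESeq2. Under library-size scaling, with the replicate block and in edgeR, 30, 27 and 25 of the 80 had an unadjusted p below 0.05 in either direction. Over all genes it was 3506 of 10403, 2748 of 10396 and 2850 of 10402. At Cd-10 the count higher in glucose was 0 to 7 with 1 library left out and 1 with the 6 Cd-10 libraries alone. The count higher in fructose was 0 to 3 with 1 library left out, 0 with the replicate block and 0 with the 6 Cd-10 libraries alone. It was 1 on the values as the authors scaled them and 7 in DESeq2, which called 429 over all genes. With the replicate block and with the 6 Cd-10 libraries alone, 25 and 30 of the 80 had an unadjusted p below 0.05 in limma. Over all genes it was 2237 of 10396 and 2234 of 10093. Library-size scaling moved the median of all genes at Cd-6 by -0.27 and the calls over all genes from 550 higher in fructose and 522 higher in glucose to 317 and 1277. At Cd-10, the median of all genes was -0.15 on the values as the authors scaled them, against -0.02 after median-ratio rescaling, with 109 and 455 calls. The cause was not tested. With a replicate block, 12 of the 80 genes passed at Cd-6 and 4 at Cd-10. Over all genes, that fit called 518 higher in fructose and 455 higher in glucose at Cd-6, and 74 and 97 at Cd-10. The labels do not say whether same-numbered cultures shared anything beyond the number. Same-numbered cultures of the 2 sugars correlated in their deviations by 0.08 to 0.18 at Cd-6, where each culture correlated best with its own number, and by -0.20 to -0.05 at Cd-10. Over all genes, edgeR on the recovered reads called 476 genes higher in fructose and 589 higher in glucose at Cd-6, and 170 and 190 at Cd-10. With 3 cultures a group, differences the size of the spread between cultures could not be resolved.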

Other observations

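The thresholds were also met by 7 genes whose ID does not begin with A. They are 1.02% of such genes with a mean of at least 50, near the 1.03% among the A IDs outside the pathway lists. Their log2 changes ran from 1.59 to 5.42 in glucose and from 1.60 to 5.69 in fructose. The one with the highest mean rescaled value, 12658, changed by 2.74 in glucose and 5.69 in fructose. A further 50 genes met the rule when glucose Cd-6 replicate 2 was left out. That culture was the highest of the glucose Cd-6 cultures in all 50. Their median log2 change, with every culture included, was 1.54 in glucose and 2.60 in fructose. The lower value in glucose was largely set in advance by how these genes were chosen, since that high Cd-6 culture is counted in it.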
